A study of Mus musculus with 8 samples.

Results

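The genes described here are 32 genes whose RNA is enriched in astrocytes, out of 37310 genes in the table of read counts. They were chosen by symbol from a list of astrocyte-enriched genes, a rule that uses no measured value, and are grouped here by the role of their products. All 32 were found in the table, and all 32 passed the filter on low counts. RNA was sequenced from the whole hippocampus of 4 Nr2f1 het mice, which carry a single knocked-out copy of the nuclear receptor and transcription factor Nr2f1, and of 4 wild-type (WT) mice. The mice of both genotypes were 3 months old, came from crosses giving B6.129 F1 hybrids and were labelled male. The knockout allele is present in every cell of the heterozygote, the labels do not describe its construction, and no cell type was isolated. Each library was labelled with an animal number of its own, so the spread within a genotype is that between 4 animals.

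Astrocytes take up the glutamate that neurons release, convert it to glutamine, buffer potassium and water, and couple to one another through gap junctions. Their endfeet cover the blood vessels of the brain, where water channels and their membrane partners are concentrated. They also store glycogen and secrete lipoproteins, such as those carrying apolipoprotein E, that deliver lipid to neurons.

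The targeted gene was checked first. Nr2f1 stood at 52.2 ± 2.07 CPM, a read count relative to the effective size of its library (SD, n = 4) in WT and at 31.3 ± 2.16 CPM in heterozygotes, and it fell by 0.73 on the log2 scale (SE 0.0511, edgeR adjusted p = 7.32e-05). Libraries held 58717305 to 90043971 gene counts. The label of the animals' sex was not matched by the counts: in all 8 libraries Xist, the X-inactivation transcript of female cells, lay between 463.2 and 601.4 CPM, and the 14 Y-linked genes matched by identifier held 3 counts in total. Markers of tissue next to the hippocampus also differed between the libraries. The summed level of 12 choroid plexus epithelium markers ran from 81.5 to 2096 CPM in WT and from 4094 to 4626 CPM in heterozygotes, so the genotypes did not overlap for this sum. WT libraries 1 and 3 had the lowest choroid plexus levels. The spike-in RNAs separated the libraries by replicate number, with a ratio of 2 spike-in transcripts of 1.20 to 1.28 in odd-numbered and 0.165 to 0.186 in even-numbered libraries.

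Sequences just upstream of the transcription start are given for the 4 genes whose genotypes did not overlap. The sequence of Glul is given as the example of a member that holds the nuclear receptor motif AGGTCA. The windows are the 250 bases before the start, taken from RefSeq (GRCm38.p6, of another build than the counts) and written 5′ to 3′ on the gene's own strand. Capitals mark this motif, searched on both strands, in Glul, where it lies 57 bases before the start.

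Slc1a2, chr2:102706188-102706437, plus strand: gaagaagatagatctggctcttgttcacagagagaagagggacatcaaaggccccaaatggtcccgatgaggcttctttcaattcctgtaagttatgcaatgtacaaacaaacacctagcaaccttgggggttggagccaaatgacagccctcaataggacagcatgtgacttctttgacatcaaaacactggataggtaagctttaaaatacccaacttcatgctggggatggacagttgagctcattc

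Cldn10, most upstream start, chr14:118787621-118787870, plus strand: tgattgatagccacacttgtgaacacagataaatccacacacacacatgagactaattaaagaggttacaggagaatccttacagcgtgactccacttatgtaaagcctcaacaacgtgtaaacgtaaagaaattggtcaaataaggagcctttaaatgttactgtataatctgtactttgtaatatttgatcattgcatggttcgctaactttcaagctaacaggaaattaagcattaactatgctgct

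Slc25a18, chr6:120773518-120773767, plus strand: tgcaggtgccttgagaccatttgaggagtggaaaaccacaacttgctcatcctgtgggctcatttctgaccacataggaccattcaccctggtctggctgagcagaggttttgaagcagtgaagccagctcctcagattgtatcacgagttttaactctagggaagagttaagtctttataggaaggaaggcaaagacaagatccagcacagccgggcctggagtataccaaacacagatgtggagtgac

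Apoe, most upstream start, chr7:19699189-19699438, minus strand: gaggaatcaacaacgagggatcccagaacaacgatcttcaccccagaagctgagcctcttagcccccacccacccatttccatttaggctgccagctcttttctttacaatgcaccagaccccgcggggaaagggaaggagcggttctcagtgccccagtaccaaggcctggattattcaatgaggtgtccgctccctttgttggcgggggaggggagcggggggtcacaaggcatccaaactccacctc

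Glul, chr1:153899679-153899928, plus strand: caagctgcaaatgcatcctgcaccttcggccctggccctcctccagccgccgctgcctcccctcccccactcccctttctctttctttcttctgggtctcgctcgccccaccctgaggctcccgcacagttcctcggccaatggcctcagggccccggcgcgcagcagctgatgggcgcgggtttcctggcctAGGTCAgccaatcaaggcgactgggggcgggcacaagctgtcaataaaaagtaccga

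RefSeq windows were matched for 26 of the 32 genes, with 34 windows in all because some genes have several starts. The letters AGGTCA or TGACCT occurred in 5 of these windows (14.7%), in Aldh1l1, Cst3, Glul, Ndrg2 and Slc4a4, against 14% of all 32851 windows. A STAT palindrome, TTC and GAA separated by 3 bases, occurred in 4 windows (11.8%), in Acsbg1, Aldoc, Ntsr2 and Slc1a3, against 7.02% of all windows. The palindrome of nuclear factor I, TTGGC and GCCAA separated by 5 bases, occurred in none of the 34 windows and in 0.0365% of all windows. None of the 4 printed genes with separated genotypes held the AGGTCA motif in these windows.

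No astrocyte gene differed between the genotypes past the threshold. By edgeR's quasi-likelihood test, 0 of the 32 genes had an adjusted p under 0.05, against 2.99% of the 17913 genes tested (2.62% higher and 0.368% lower in heterozygotes). The Wald test of DESeq2 called 4 of the 32, namely Slc1a2, Cldn10, Mlc1 and Fgfr3, beside 6.83% of its genes, and limma-voom called 1, Slc1a2, beside 3.51%. At an unadjusted p under 0.05, edgeR counted 10 of the 32 genes (31.3%), 6 higher and 4 lower in heterozygotes, against 17.2% of all genes tested (10% higher and 7.11% lower). The genotypes did not overlap, meaning that each library of one lay beyond each library of the other, for 4 of the 32 genes (12.5%), 2 in each direction, against 10.6% of all genes tested (6.99% higher and 3.59% lower). The median log2 fold change of the 32 genes was -0.012, beside -0.0056 over all genes tested. It was positive for 14 and negative for 18 genes and ran from -0.19 to 0.19, with 20 of the 32 within 0.1 of 0. Scaling by the spike-in RNAs moved the median of the 32 genes to 0.087 and that of all genes to 0.091, and 0 of the 32 then had an unadjusted p under 0.05, against 3.55% of all genes. With the choroid plexus marker score as a covariate 3 of the 32 had an unadjusted p under 0.05, against 6.6% of all genes, and with the ependymal score 0, against 4.99%. In bulk tissue, fewer astrocytes and less astrocyte RNA per cell cannot be told apart.

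The 32 genes had between 1210 and 313462 counts in a library, and the standard error of their log2 fold changes had a median of 0.0440. The 95% interval lay within 0.3 of 0 for 29 of the 32 genes. The outermost bounds were a 0.768-fold level for Gjb6 and a 1.25-fold level for Sox9. Together the 32 genes took 1.40% to 1.45% of the effective library size in WT libraries and 1.37% to 1.48% in heterozygous libraries.

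**Figure D1:**
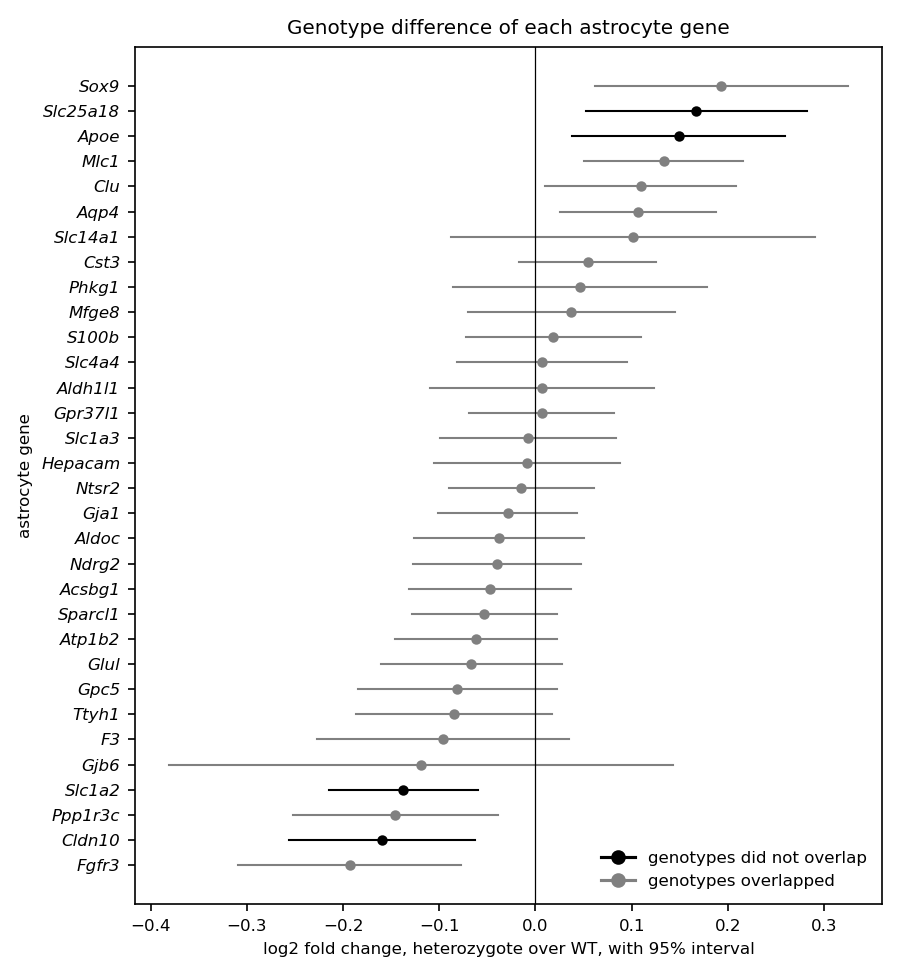
Log2 fold change between heterozygous and WT libraries for the 32 astrocyte genes, with 95% intervals from edgeR, ordered by fold change. Values run from -0.19 for Fgfr3 to 0.19 for Sox9, and none passed the adjusted threshold.

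Levels between genes are compared per exon length, as RPKM, the CPM divided by the kilobases of exon of the GENCODE M21 annotation. The most abundant astrocyte transcripts in WT were those of Sparcl1, Apoe and Cst3. Sparcl1, a secreted protein that promotes synapse formation, was at 561 ± 3.10 RPKM (SD, n = 4). Apoe, the main apolipoprotein of the brain, was at 545 ± 30.0 RPKM and Cst3, the protease inhibitor cystatin C, at 543 ± 15.3 RPKM. The WT range of Apoe overlapped that of Sparcl1 and that of Cst3, while every Sparcl1 value lay above every Cst3 value. Glul followed at 449 ± 15.1 RPKM, below all of them. The ranges of Slc1a2 at 267 ± 9.45 RPKM and Clu at 256 ± 17.4 RPKM overlapped, as did those of Ndrg2 at 205 ± 7.55 RPKM and Aldoc at 202 ± 3.35 RPKM. Sox9 at 6.20 ± 0.209 RPKM, Slc14a1 at 4.46 ± 0.226 RPKM and Phkg1 at 2.71 ± 0.0808 RPKM were the lowest, each with a range apart from the next.

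**Figure D2:**
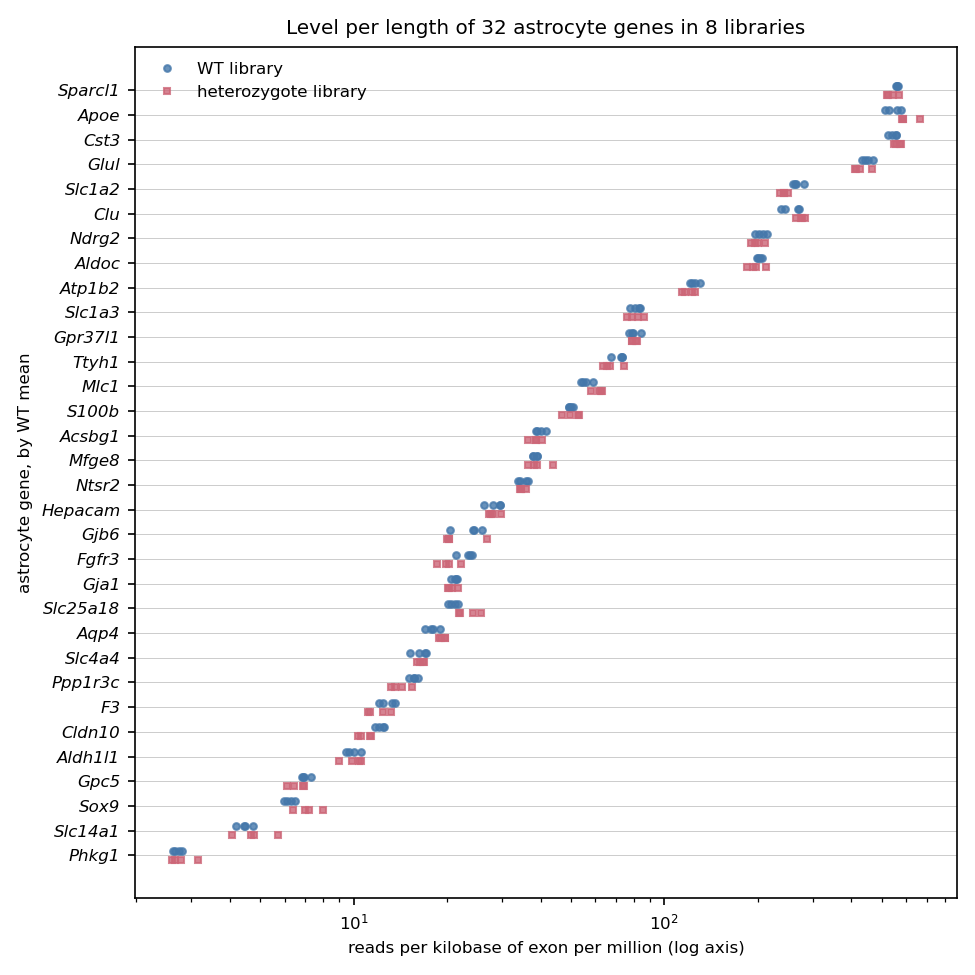
Level per exon length in RPKM, on a log axis, of the 32 astrocyte genes in each WT and heterozygous library. The order runs from Sparcl1 at a WT mean of 561 RPKM to Phkg1 at 2.71 RPKM, and each gene's log2 fold change lies between -0.19 and 0.19.

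Among the genes of glutamate uptake and recycling, Slc1a2, the main glutamate transporter of the forebrain, had CPM of 3688, 3457.1, 3404.2 and 3486.8 in WT libraries 1 to 4 and of 3189.9, 3183.1, 3287.6 and 3101.4 in heterozygous libraries 1 to 4. Every heterozygous library was below every WT library. Slc1a2 had a log2 fold change of -0.14 (SE 0.0355, 95% interval -0.21 to -0.060, edgeR adjusted p = 0.0584), which is 90.9% of the WT level. Libraries 1 and 3, alike in their spike-in ratio, gave -0.12 and libraries 2 and 4 gave -0.14. WT libraries 1 and 3 also had the lowest choroid plexus levels. Spike-in ratio and choroid plexus level therefore cannot be told apart in this split, here or for the genes below. The log2 fold change of Slc1a2 was -0.084 with the choroid plexus score, -0.055 with the ependymal score and -0.038 with spike-in scaling. Spike-in scaling also moved the median over all genes tested, from -0.0056 to 0.091. It used the summed spike-in counts, and the spike-in ratio differed between odd- and even-numbered libraries.

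Slc25a18, a mitochondrial glutamate carrier, had CPM of 39.3, 40.6, 38.5 and 41.5 in WT and of 41.9, 46.2, 49.2 and 42.1 in heterozygotes. Every heterozygous library lay above the highest WT library, by a small margin in library 1. Its log2 fold change was 0.17 (SE 0.0529, edgeR adjusted p = 0.114). The other members of this group differed less: Slc1a3, the second glutamate transporter, had a log2 fold change of -0.0079 and Glul, glutamine synthetase, one of -0.067 (edgeR adjusted p = 0.951 and 0.478). The ratio of Slc1a2 to Slc1a3 per exon length was 3.30 ± 0.144 in WT and 3.02 ± 0.125 in heterozygotes (SD, n = 4), with overlapping ranges.

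Among the genes of water, ion and urea transport and the endfoot membrane, Mlc1, a membrane protein of astrocyte endfeet, had CPM of 151.5, 165.3, 153.1 and 156.9 in WT and of 175.3, 163.0, 176.6 and 172.8 in heterozygotes. The genotypes overlapped only because WT library 2 lay above heterozygous library 2. Mlc1 had a log2 fold change of 0.13 (SE 0.0381, edgeR adjusted p = 0.0813). Without WT library 2 it was 0.17, past the threshold (edgeR adjusted p = 0.0448), and with the other libraries left out in turn it stayed at 0.12 to 0.16, with adjusted p from 0.0572 to 0.230. Mlc1 was at 0.079 with the choroid plexus score, at 0.032 with the ependymal score, at 0.22 in libraries 1 and 3 and at 0.059 in libraries 2 and 4. Hepacam, the adhesion protein that binds Mlc1, had a log2 fold change of -0.0086. The ratio of Mlc1 to Hepacam per exon length was 1.97 ± 0.0808 in WT and 2.18 ± 0.0835 in heterozygotes (SD, n = 4). Its ranges, 1.89 to 2.08 in WT and 2.10 to 2.27 in heterozygotes, did not overlap, by a small margin.

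Aqp4, the water channel of the endfoot, had CPM of 106.0, 118.2, 112.6 and 110.3 in WT and of 122.4, 117.5, 118.8 and 122.9 in heterozygotes. WT library 2 lay among the heterozygous values. For Aqp4 the log2 fold change was 0.11 (SE 0.0373, edgeR adjusted p = 0.151), and it was -0.0092 with the ependymal marker score in the fit.

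Ttyh1, a membrane protein of the tweety family, had CPM of 465.8, 462.1, 431.1 and 466.0 in WT and of 404.2, 418.3, 471.8 and 426.8 in heterozygotes. Heterozygous library 3 was the highest of all 8 and WT library 3 the lowest of its genotype. Ttyh1 had a log2 fold change of -0.084 (SE 0.0469, edgeR adjusted p = 0.394). Atp1b2, a subunit of the sodium pump, had CPM of 502.7, 532.5, 493.2 and 511.7 in WT and of 465.3, 502.3, 511.2 and 475.5 in heterozygotes, and the genotypes overlapped at a log2 fold change of -0.062 (edgeR adjusted p = 0.457). The other members of the group, the bicarbonate transporter Slc4a4 at 0.0068 and the urea transporter Slc14a1 at 0.10, had log2 fold changes with adjusted p of 0.958 and 0.607 by edgeR. The value of Slc14a1 was 0.020 without heterozygous library 1 and 0.18 without heterozygous library 3.

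The gap junction genes did not differ past the threshold. Gjb6, connexin 30, had CPM of 64.9, 65.4, 54.8 and 69.4 in WT and of 54.1, 53.6, 71.9 and 54.3 in heterozygotes, and library 3 was the lowest of WT and the highest of the heterozygotes. Its log2 fold change was -0.12 (SE 0.113), and it was 0.087 in libraries 1 and 3 and -0.32 in libraries 2 and 4. Gja1, connexin 43, the main astrocytic connexin, had a log2 fold change of -0.029, from 217 ± 4.27 CPM in WT to 213 ± 7.22 CPM in heterozygotes (SD, n = 4).

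Among the genes of energy, folate and lipid metabolism, Ppp1r3c, which targets a phosphatase to glycogen, had CPM of 41.0, 42.7, 42.5 and 44.0 in WT and of 39.0, 35.8, 41.9 and 37.1 in heterozygotes. The genotypes overlapped only by heterozygous library 3, which lay above WT library 1. Ppp1r3c had a log2 fold change of -0.15 (SE 0.0491, edgeR adjusted p = 0.136), and it was -0.035 in libraries 1 and 3 and -0.25 in libraries 2 and 4. Aldoc, a glycolytic aldolase, and Acsbg1, a fatty acyl-CoA synthetase, had log2 fold changes of -0.038 and -0.047. Aldh1l1, the folate enzyme used as an astrocyte marker, was at 44.9 ± 2.14 CPM in WT (SD, n = 4) with a log2 fold change of 0.0066, and Phkg1, the catalytic subunit of phosphorylase kinase, had a log2 fold change of 0.046.

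The next group holds apolipoproteins and other secreted or surface proteins. Apoe had CPM of 1093.5, 1202.2, 1129.6 and 1232.9 in WT and of 1245.3, 1249.8, 1417.8 and 1251.5 in heterozygotes. Each heterozygous library lay above each WT library, and heterozygous library 3 stood apart at the top. Apoe had a log2 fold change of 0.15 (SE 0.0508, edgeR adjusted p = 0.142). It was 0.27 in libraries 1 and 3 and 0.038 in libraries 2 and 4. With the choroid plexus score in the fit it was 0.044 (edgeR adjusted p = 0.949).

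Clu, the lipoprotein component clusterin, had CPM of 840.7, 923.5, 814.2 and 934.3 in WT and of 912.4, 949.3, 953.0 and 974.5 in heterozygotes. WT libraries 2 and 4 lay above heterozygous library 1 and below the others. Clu had a log2 fold change of 0.11 (SE 0.0459, edgeR adjusted p = 0.241), and it was -0.0025 with the choroid plexus score and -0.091 with the ependymal score in the fit. Both scores lay higher in every heterozygous than in any WT library, with choroid plexus scores of -3.58 to 0.32 in WT and 1.16 to 1.43 in heterozygotes, so for any of the 32 genes genotype and these markers cannot be told apart.

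Cldn10, a claudin, had CPM of 30.4, 32.2, 32.5 and 31.2 in WT and of 29.5, 27.4, 29.3 and 26.9 in heterozygotes. Every heterozygous library lay below every WT library. Its log2 fold change was -0.16 (SE 0.0446, edgeR adjusted p = 0.0764), and it was -0.087 in libraries 1 and 3 and -0.23 in libraries 2 and 4. Gpc5, a glypican, had CPM of 30.9, 32.4, 30.4 and 30.6 in WT and of 27.1, 28.7, 30.6 and 30.8 in heterozygotes, with overlap. Cst3 had CPM of 702.2, 703.0, 683.6 and 661.8 in WT and of 730.9, 695.8, 724.7 and 705.0 in heterozygotes, and heterozygous library 2 lay within the WT range. The log2 fold changes of Gpc5 and Cst3 were -0.081 and 0.054 (edgeR adjusted p = 0.421 and 0.435). Those of the secreted synaptic protein Sparcl1, the phosphatidylserine-binding protein Mfge8 and the coagulation initiator F3 were -0.053, 0.037 and -0.096.

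**Figure D3:**
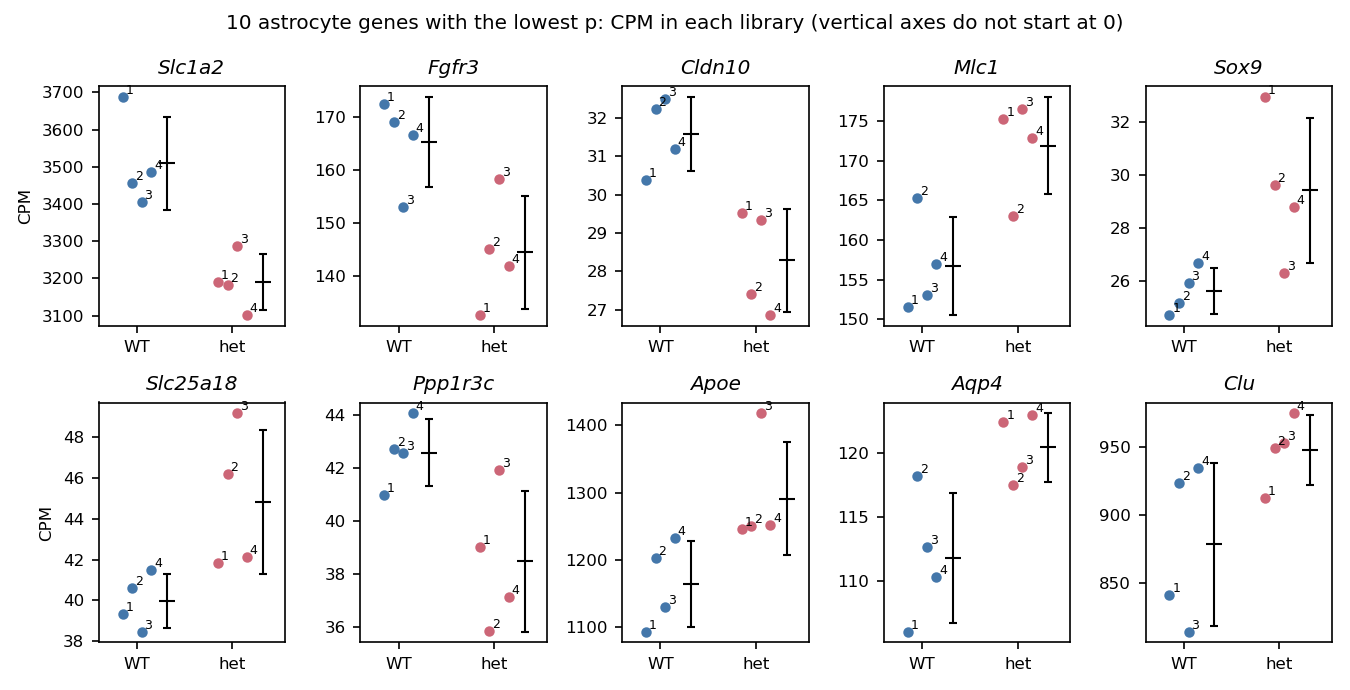
CPM of the 10 astrocyte genes with the lowest p in each library, numbered by replicate, with the mean ± SD of each genotype; the vertical axes do not start at 0. Slc1a2 and Cldn10 lie lower and Slc25a18 and Apoe higher in all 4 heterozygous libraries, while the other panels overlap.

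Among the transcription factor, the receptors and the signalling proteins, Fgfr3, a fibroblast growth factor receptor, had CPM of 172.5, 169.1, 153.0 and 166.6 in WT and of 132.7, 145.1, 158.4 and 141.8 in heterozygotes. Heterozygous library 3 lay above WT library 3, and these 2 libraries made the genotypes overlap. For Fgfr3 the log2 fold change was -0.19 (SE 0.0533, edgeR adjusted p = 0.0761). Sox9, a transcription factor of astrocyte identity, had CPM of 24.7, 25.2, 26.0 and 26.7 in WT and of 32.9, 29.6, 26.3 and 28.8 in heterozygotes, and heterozygous library 3 lay below WT library 4. Its log2 fold change was 0.19 (SE 0.0607, edgeR adjusted p = 0.111). Without heterozygous library 3 both genes passed the threshold, with adjusted p of 0.0288 for Fgfr3 and 0.0453 for Sox9 by edgeR. The other members of the group, the neurotensin receptor Ntsr2, the orphan receptor Gpr37l1, the calcium-binding protein S100b and Ndrg2, had log2 fold changes of -0.015, 0.0063, 0.019 and -0.040.

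Heterozygous library 3 differed from the other heterozygotes at many astrocyte genes. It was the highest of the 4 heterozygous libraries for 22 of the 32 genes and the lowest for 3. The share over all genes was not counted. The mean score of this library was also the highest of the heterozygotes for ribosomal protein, microglia and oligodendrocyte precursor genes, at 0.084, 0.075 and 0.11. The same held for further astrocyte genes, at 0.15, and reactive astrocyte genes, at 0.21. It held too for meningeal, thalamic and endothelial markers, at 0.67, 0.41 and 0.031. This library was the lowest of the heterozygotes for neuron markers, at -0.094, and for choroid plexus markers, at 1.16. It was also the lowest of them for ependymal markers, at 0.47, and for sterol and lipoprotein genes, at 0.031. Without it, 17 of the 32 genes had an unadjusted p under 0.05 by edgeR, against 14.5% of all genes tested in either direction. Of the 17, 11 were lower and 6 higher in heterozygotes, and the share by direction over all genes was not counted. With each other library left out in turn, 9 or 10 of the 32 had an unadjusted p under 0.05. WT library 3 was the lowest of the WT libraries for 15 genes and WT library 1 for 11.

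**Figure D4:**
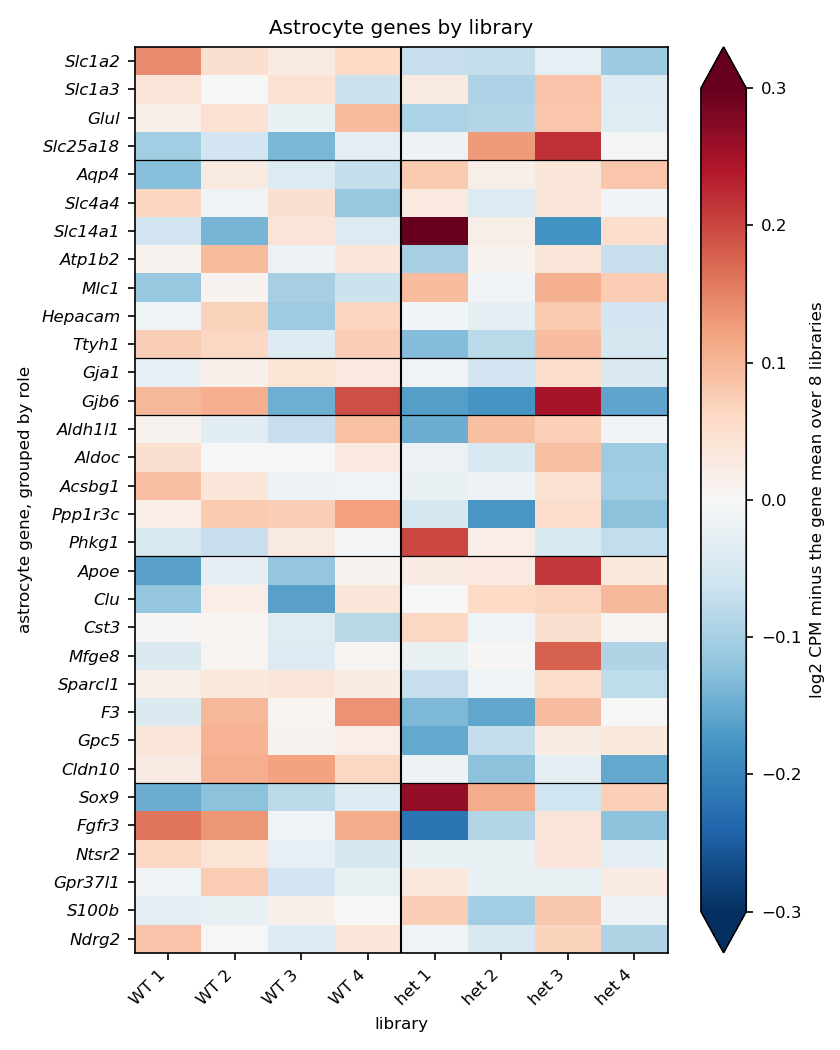
Log2 CPM of each library minus the gene's mean over the 8 libraries, for the 32 astrocyte genes. Heterozygous library 3 is the highest heterozygous library for 22 of the 32 genes, and the colour scale is clipped at the ends.

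The 32 genes varied together to some extent within the genotypes. Over the 496 pairs, Pearson's r of log2 CPM after removal of the genotype means had a median of 0.26, and it was positive for 350 pairs. All genes of a library share its depth and composition, which differed between the 8 libraries, so r is given as a description. Fgfr3 had the highest median r with the others, 0.569, and Sox9 and Slc14a1 had the lowest, -0.396 and -0.443.

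Further astrocyte genes, and genes of related functions that are not limited to astrocytes, were read against the same background of 2.99%. Their lists shared no gene with the 32. Of 35 further astrocyte genes, 2 rose and 0 fell, with a list median of 0.016 on the log2 scale. Slco1c1, a thyroid hormone transporter, rose by 0.38 (edgeR adjusted p = 0.00862) and Fgfr2, a fibroblast growth factor receptor, by 0.30 (edgeR adjusted p = 0.013). Of 19 genes for glutamate and glutamine handling, 1 rose: Slc38a3, a glutamine transporter, by 0.45 on the log2 scale (edgeR adjusted p = 0.00229), from 67.1 ± 5.36 to 91.4 ± 3.10 CPM (SD, n = 4), with a list median of -0.041. Of 15 genes of the endfoot anchoring complex, 1 rose: Lamb2, a laminin chain, by 0.25 (edgeR adjusted p = 0.0241), with a median of 0.027. Of 11 other gap junction and pannexin genes, 1 fell: Panx2 by 0.18 (edgeR adjusted p = 0.0332), with a median of 0.011.

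Of 21 genes of glycogen enzymes, 0 passed by edgeR, 5 had an unadjusted p under 0.05, against 17.2% of all genes tested, and the median was 0.016. The lowest p values were those of Phkb, a phosphorylase kinase subunit, with a log2 fold change of 0.14, and of Pygl, a glycogen phosphorylase, with 0.32 (edgeR adjusted p = 0.0762 and 0.112). Of 22 sterol and lipoprotein genes tested, 1 rose: Pltp, the phospholipid transfer protein, by 0.74 (edgeR adjusted p = 0.00701), with a median of 0.039 and 7 genes whose higher heterozygous values did not overlap WT, against 6.99% of all genes tested. Of 39 reactive astrocyte genes, 35 were tested; of these 4 rose and 0 fell, with a median of 0.20: Tm4sf1 by 0.70, Vim by 0.48, Steap4 by 2.22 and Gbp2 by 0.61. Steap4 stood at 0.142 ± 0.0986 CPM in WT and 0.685 ± 0.195 CPM in heterozygotes (SD, n = 4). Of the 35 genes tested, 6 were higher in every heterozygous library than in any WT library, against 6.99% of all genes tested. The 4 named genes were among them. The summed level of the list overlapped between the genotypes, at 860 to 938 CPM in WT and 879 to 976 CPM in heterozygotes. With the choroid plexus score in the fit, 0 genes of the whole table passed the threshold with a higher level. With the ependymal score, 0 passed in either direction. None of the rises named for the lists above passed in these fits. For these genes too, genotype and the choroid plexus and ependymal markers cannot be told apart.

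Markers of other cells in the dissection were read in the same way. All 12 choroid plexus epithelium markers were higher in heterozygotes without overlap, with a list median of 1.93 on the log2 scale, and 0 of the 12 passed the adjusted threshold of edgeR, while 11 had an unadjusted p under 0.05. Calml4 and Kcnj13 had the lowest p, with log2 fold changes of 1.80 and 2.08 (edgeR adjusted p = 0.0660 and 0.0944). All 6 ependymal markers were higher without overlap, 4 of them (Mia, Dynlrb2, Rsph1 and Ccdc153) past the threshold, with summed levels of 10.4 to 20.7 CPM in WT and 29.8 to 45.3 CPM in heterozygotes and a median of 1.34. Of 9 meningeal fibroblast markers, 1 rose, Islr, with a median of 0.80 and summed levels of 102 to 250 CPM in WT and 334 to 399 CPM in heterozygotes. No marker of these 3 lists was at 0 in all libraries.

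Of 13 neuron markers, 2 fell, Rbfox3 by 0.13 and Snap25 by 0.20 (edgeR adjusted p = 0.0396 and 0.0419), with a median of -0.10. The log2 fold change was positive for 0 of the 13. By edgeR, 6 had an unadjusted p under 0.05, against 17.2% of all genes tested. The values of 4 were lower without overlap, against 3.59% of all genes tested. Of 10 striatal markers, 1 rose, Ppp1r1b, and of 10 thalamic markers, 2 rose, Prkcd and Calb2, with medians of 0.74 and 0.37. By edgeR 0 of the 12 myelinating oligodendrocyte markers passed, and 0 had an unadjusted p under 0.05, with a median of 0.12, led by Trf at 0.28 and Opalin at 0.26. The 7 oligodendrocyte precursor markers, 11 microglia markers and 9 endothelial markers also had 0 past the edgeR threshold, with 1, 1 and 2 at an unadjusted p under 0.05 and medians of 0.052, -0.0052 and -0.0021. Among those with the lowest p in these lists, the log2 fold changes were -0.16 for Cspg4, 0.16 for Sox10, -0.10 for P2ry12, -0.14 for Tek and 0.26 for Kdr. The part of these markers in the differences of single astrocyte genes was not tested.

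**Figure D5:**
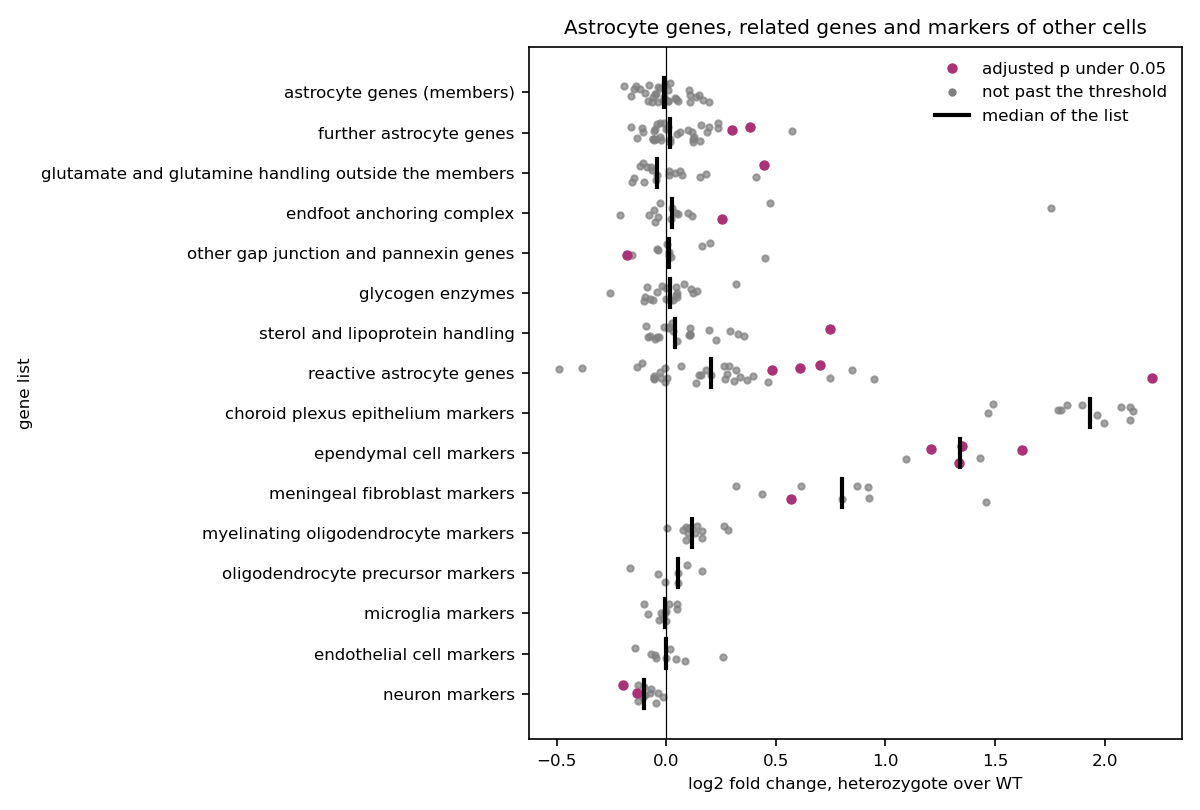
Median log2 fold change of the 32 astrocyte genes and of each other list, with each gene as a point. The astrocyte genes centre at -0.012, while the choroid plexus epithelium, ependymal and meningeal lists centre at 1.93, 1.34 and 0.80.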

How the data were processed

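The authors deposited raw read counts per Ensembl gene for 8 libraries. The submitters' processing notes name FastQC, STAR 2.4.2a, HTSeq, DESeq2 and the builds NCBIM37 and mm9; their roles, the annotation and strand use were not given in the sources used here. Since the kit does not mark strand, antisense reads cannot be told apart. Of the table's rows, 37310 were genes and 92 were spike-ins; the latter took 0.0431% to 0.0787% of a library's counts and were left out of library sizes and tests. Symbols came from a GENCODE table on GRCm38. A count of 0 allows up to 3 counts, 0.0332 to 0.0510 CPM by library, for counting error only. Replicate pairs differed beyond sampling noise (chi-square over degrees of freedom, 7.42 to 25.0).

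Counts were scaled by TMM, filtered with filterByExpr (minimum count 10, total 15) and compared by the two-sided quasi-likelihood test of edgeR 4.0.16 (robust) in R 4.3.3, fitted on all genes with Benjamini-Hochberg adjustment at 0.05; limma 3.58.1 and DESeq2 1.42.0 served as alternatives, beside other scalings, filters, dispersion estimates, left-out libraries, a replicate block, odd or even libraries alone, the run of animal numbers in the titles (86 to 88 against 93 to 97) and marker scores as covariates. The edgeR step was tested on simulated data. Scores are the mean over a list of log2 CPM, centred by gene. Every astrocyte gene is named, with all library values for at most 14: those with separated genotypes first, then the lowest p. From other lists up to 4 genes past the threshold are named, or the 2 with the lowest p where none passed. A gene chosen by this rule is not reported here. Gjb6 is given by library in addition, and that choice was made after its values were seen. The members and lists were chosen with earlier results of these data known. The older dispersion estimate was added after seeing the data. Chromosome-level checks of the labels (Xist and Y-linked genes) were also made after seeing the data.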

Additional observations from a re-analysis of the deposited data

Results flagged for a closer look

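In 4 of the 64 groups of 4 libraries examined (32 genes in each genotype), 1 library stood far from the other 3; chance flags about 1 in 20 groups. Each was set apart by the gap to its nearest neighbour relative to the whole range (Dixon's criterion). Apoe was at 1417.8 CPM in heterozygous library 3, Gjb6 at 71.915 CPM and Ntsr2 at 112.01 CPM in the same library, and Ttyh1 at 431.11 CPM in WT library 3. The heterozygous values were the highest of their genotype and the WT value the lowest.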

How the results depend on the processing

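Of the 32 astrocyte genes, 0 were called with DESeq2 size factors, upper quartile or spike-in scaling, the filter of 1 CPM in 4 libraries, the non-robust fit or the older dispersion estimate; the DESeq2 Wald test called 4, limma-voom 1 and the fit with no low-count filter 1. Leaving out each library gave 0 to 2 (Mlc1 without WT library 2, Fgfr3 and Sox9 without heterozygous library 3). The median of the 32 genes was 0.087 with spike-in scaling, beside 0.091 over all genes, 0.022 in odd-numbered and -0.061 in even-numbered libraries. Genes past the threshold over the whole table, 535 in the main fit (469 higher, 66 lower), were 185 with spike-in scaling (184 higher, 1 lower), 1200 by DESeq2 (911 higher, 289 lower), 170 without WT libraries 1 and 3, 78 in even-numbered libraries, 231 with the run of animal numbers, 1 with the choroid plexus score, 0 with the ependymal score and 171 to 767 with each library left out. Clu turned to -0.0025 with the choroid plexus score and -0.091 with the ependymal score, and Aqp4 to -0.0092 with the latter; the cause was not tested. Genes short of an unadjusted p of 0.05 changed sign 64 times over 24 settings.

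After removal of the genotype means, same-numbered libraries correlated at 0.0269, -0.0449, -0.0932 and -0.0780. Not every library correlated best with its own number. Correlations this weak cannot show whether the numbers pair the animals, and the spike-in ratio did go with odd and even numbers. With the number as a replicate block, 0 of the 32 genes passed, their median was -0.011, and 406 genes passed over the whole table.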

Other observations

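The 25 ribosomal protein genes had 0 past the edgeR threshold and 0 at an unadjusted p under 0.05, with a median log2 fold change of 0.045; Rpl19 and Rps9 had the lowest p, at 0.064 and 0.061. The 13 genes of the mitochondrial genome also had 0 past it by edgeR, 5 at an unadjusted p under 0.05, and a median of -0.20. The lowest p values were those of mt-Atp8, which overlaps a neighbouring gene, at -1.47 and of mt-Nd2 at -0.20 (edgeR adjusted p = 0.0566 and 0.136). This list took 3.33% to 3.69% of the effective library size in WT libraries and 3.24% to 3.43% in heterozygous libraries.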
